A study of Pyrus betulifolia with 6 samples.

Results

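The cell cycle and DNA replication genes of *Pyrus betulaefolia* root tips were examined after 24 h of boron (B) deficiency. A gene was included when its annotation carried the KEGG pathway for DNA replication (ko03030), or when its best protein match named a cyclin, a cyclin-dependent kinase (CDK), E2F, a DNA replication licensing factor, proliferating cell nuclear antigen (PCNA), a mitotic protein or ribonucleoside-diphosphate reductase, with histones left out. The rule took 252 of the 37815 genes listed, 122 of them through the pathway and 130 through the protein match alone. By their names and KEGG entries, 32 genes were placed in G1 (D-type cyclins and E2F), 128 in S phase (replication proteins), 42 in mitosis (A- and B-type cyclins, CDKB, spindle checkpoint proteins and 2 genes named cyclin-B1-2-like that carry the UMP1 domain of a proteasome maturation factor) and 10 among CDK inhibitors. The other 40 fitted none of these. They were other cyclins and CDKs, but for a calcyclin-binding protein that the name match took and that was not tested.

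The comparison was between groups of wild-type plants with 3 RNA-seq libraries each: plants in nutrient solution with 0 mM B for 24 h (B deficiency), and plants in solution with 0.045 mM B (control). All of them were seed-raised plants of the rootstock species *P. betulaefolia*, grown in boxes of solution. The labels call the 3 libraries of a group biological replicates, and the sources used here do not give whether a library held root tips of 1 plant or of several. The reference genome was that of a related pear, *P. bretschneideri*, and expression was given as FPKM (fragments scaled to transcript length and to the mapped total of the library), which keeps no read count behind each value.

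Cells that divide pass through G1, S, G2 and mitosis. In G1, D-type cyclins with the kinase CDKA phosphorylate the retinoblastoma-related protein, which frees E2F factors to switch on S-phase genes. In S phase the MCM2 to MCM7 helicase opens the DNA, replication protein A (RPA) covers the single strands, and polymerases copy them while held by the sliding clamp PCNA, which replication factor C (RFC) loads. A- and B-type cyclins with CDKA and the plant-specific CDKB drive G2 and mitosis, and CDK inhibitors restrain the kinases. In roots nearly all of these divisions take place in the meristem just behind the root cap.

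Few of these genes differed between B deficiency and control root tips, and none of the mitosis genes was called. Of the 252 genes, 195 averaged 0.5 FPKM or more across the 6 libraries and were tested; the other 57 lay below that level, and 20 of them were listed at 0 in every library. A gene was called when its log2 fold change, B deficiency minus control, was at least 1 in size and its adjusted p was below 0.05 (limma on log2(FPKM + 0.1), Benjamini-Hochberg adjustment over all 28129 genes tested). Of the 195, 5 were called higher, where the share of all genes called higher was 4.37%, and 6 were called lower, where the share of all genes was 3.83%. With the minimum fold left out, 13 members had an adjusted p below 0.05 and were higher (12.0% of all genes tested) and 18 were lower (15.4% of all genes tested). Of these 31, 20 were short of the minimum fold, and 6 of the 20 kept an adjusted p below 0.05 whichever library was left out: MCM4 LOC125473387, POLD1 LOC103957642, RFC3-like LOC103956269, the organelle polymerase LOC103967086, the mitotic cyclin LOC103936542 and CDKF-4 LOC125472290. The other 14 lost it without at least 1 library. At an unadjusted p below 0.05, 23 members were higher (16.3% of all genes tested) and 27 lower (23.2% of all genes tested). The 3 B deficiency values all lay above the 3 control values for 27 members (18.5% of all genes), and all below them for 39 members (26.6% of all genes). Under quantile normalization the called members split into 6 higher and 4 lower.

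The median log2 fold change was 0.03 over the 22 tested G1 genes, -0.00 over the 93 S-phase genes, -0.06 over the 40 mitosis genes, -0.12 over the 7 CDK inhibitors and -0.02 over the 33 other cyclins and CDKs, beside -0.05 over all genes tested. The sign of the G1 median turned when B deficiency library 2, B deficiency library 3 or control library 3 was left out. The 95% interval of the fold change lay wholly inside a 2-fold change either way (within 1 on the log2 scale) for 159 of the 195 members, or 81.5%, and for 75.0% of all genes tested. Summed over the tested S-phase genes, expression was 1401, 1295 and 1395 FPKM in B-deficient root tips, against 1450, 1451 and 1434 FPKM in control root tips. The 3 B deficiency sums lay below the 3 control sums, and so did those of the RPA large-subunit genes, at 499.9, 469.7 and 509.5 FPKM in B-deficient root tips, against 559, 551 and 542 FPKM in control root tips. Within this subunit, the sums of the 5 tested genes with the N-terminal RPA domain Rep-A_N overlapped between the groups. The 24 without it summed to 473.9, 440.3 and 479.4 FPKM in B-deficient root tips, against 529.8, 520.8 and 513.1 FPKM. The genes of this subunit called lower, among them novel31 and novel32, were all among these 24 and made part of that gap. Outside this subunit, the sums of the other 64 tested S-phase genes overlapped. They were 901, 825 and 886 FPKM in B-deficient root tips, against 891, 900.1 and 891 FPKM in control root tips. Among their roles, PCNA summed lower without overlap (85.0, 86.0 and 87.9 FPKM, against 108.2, 94.8 and 102.7 FPKM). So did RFC (104.2, 96.1 and 99.6 FPKM, against 118.3, 125.4 and 125.1 FPKM). The organelle replication genes did too (29.4, 24.1 and 25.4 FPKM, against 32.4, 32.1 and 31.5 FPKM). Without the RFC3-like LOC103956269 the RFC sums overlapped. The sums of the remaining roles overlapped. The lower S-phase sum was thus not shared by all S-phase genes. Summed over the tested mitosis genes, expression was 658, 629 and 680.2 FPKM in B-deficient root tips, against 662, 693 and 664 FPKM in control root tips, with overlap. Without the 2 UMP1 genes, the mitosis sum was 424, 393.5 and 429 FPKM in B-deficient root tips, against 431, 449 and 438 FPKM in control root tips, all 3 below the controls. When the MOZART1-like LOC103927835 was left out as well, the sums overlapped. Of the 38 tested mitosis genes without UMP1, 17 had a log2 fold change above 0 and 21 below. By role, the CDK subunit CKS summed lower without overlap (133.6, 131.1 and 141.2 FPKM, against 144.3, 148.4 and 144.3 FPKM in control root tips). So did the spindle checkpoint genes with MOZART1 (113, 98.2 and 111.7 FPKM, against 114.5, 130.7 and 122.5 FPKM). Without the MOZART1-like LOC103927835 the sums of this role overlapped, and none of its genes had an adjusted p below 0.05. Of the 2 CKS genes, 1 was itself lower without overlap, as were 26.6% of all genes tested. Neither CKS gene had an adjusted p below 0.05. The sums of the A-type cyclins, the B-type cyclins and CDKB overlapped with the controls. In bulk root tips, fewer dividing cells and less RNA per dividing cell cannot be told apart. Of the tested members, 8 had a group mean under 0.5 FPKM and entered through the other group alone, and 3 of these 8 were among the called genes.

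**Figure D1:**
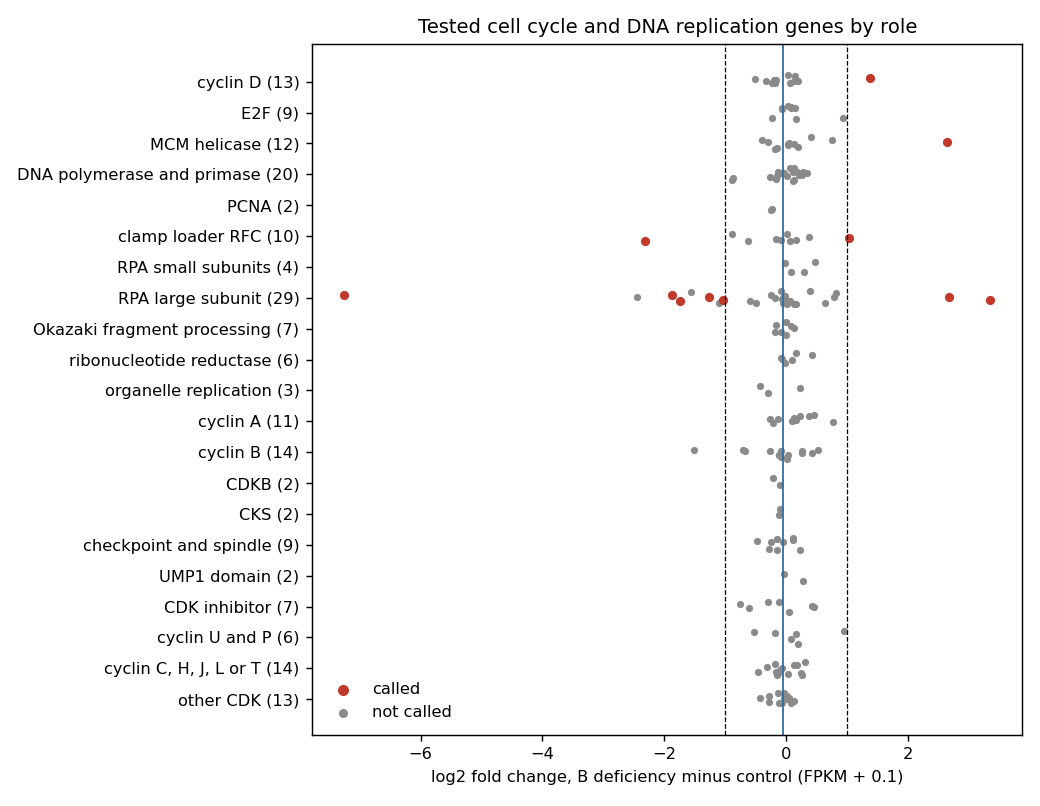
Log2 fold change (B deficiency minus control, of FPKM + 0.1) of each of the 195 tested genes, one point per gene, by role with the number tested in brackets. Red points were called, dashed lines mark a 2-fold change, and the blue line is the median of all genes tested (-0.05). Of the 11 red points, 7 lie in the RPA large subunit row. The leftmost, novel31, was listed at 0 in all B deficiency libraries, so its place depends on the 0.1 added.

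The 6 libraries were alike in total, with summed FPKM between 951246 and 971102. Over all tested genes the 2 B deficiency libraries 1 and 3 correlated at 0.98 (Pearson's r of log2 values across genes, which are not independent), B deficiency library 2 correlated with them at 0.96 and 0.96, and the control libraries correlated among themselves at 0.98. B deficiency library 2 is therefore set beside the other 2 wherever it stood apart from them.

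Among the G1 genes the D-type cyclins, which read growth signals and start the cycle, numbered 23, of which 13 were tested. One of them changed. The putative cyclin-D6-1 LOC103962735 had 2.17, 2.45 and 2.26 FPKM in B-deficient root tips, against 0.49, 1.16 and 0.92 FPKM in control root tips. It was higher in all 3 B deficiency libraries, and the groups did not overlap (log2 fold change 1.39 ± 0.30 (SE), adjusted p = 0.0141). In Arabidopsis, CYCD6;1 acts in the formative divisions that separate cortex from endodermis. The rule took 3 genes named cyclin-D6-1. A second tested one, LOC103941960, had 1.32, 1.61 and 1.25 FPKM in B-deficient root tips, against 1.73, 1.12 and 1.19 FPKM in control root tips, and its groups overlapped. The third, LOC103944476, stayed below 0.5 FPKM.

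Cyclin-D3-2 LOC103957180 was the G1 gene with the highest mean, at 34.4, 31.6 and 35.4 FPKM in B-deficient root tips, against 32.6, 35.5 and 30.9 FPKM in control root tips. Cyclin D3 holds cells in division in Arabidopsis, and here the groups overlapped (log2 fold change 0.03 ± 0.08 (SE), adjusted p = 0.777). The D-type cyclin with the most negative fold change was the cyclin-D4-1-like LOC103933053, at 4.97, 3.37 and 5.18 FPKM in B-deficient root tips, against 7.09, 6.95 and 5.15 FPKM in control root tips, which did not pass the test (log2 fold change -0.51 ± 0.20 (SE), adjusted p = 0.105). The 4 tested D3 genes described as cyclin-D3-1 or as the other cyclin-D3-2 had negative fold changes between -0.23 and -0.16, none with an adjusted p below 0.05. The median over the 13 tested D-type cyclins was -0.16.

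E2F stood in the description of 9 genes, all tested, and 7 of the 9 had the E2F DNA-binding domain. E2FA and E2FB are activators of S-phase genes in Arabidopsis, E2FC a repressor, and the atypical E2FE limits the switch to endoreduplication. The E2FA gene LOC103961726 had 7.94, 8.27 and 9.68 FPKM in B-deficient root tips, against 8.79, 7.61 and 7.98 FPKM in control root tips. E2FB, LOC103959291, had 8.88, 8.88 and 7.72 FPKM in B-deficient root tips, against 6.78, 7.9 and 7.91 FPKM in control root tips. The 2 groups overlapped for both, and no E2F gene had an adjusted p below 0.05. The widest difference was that of LOC103958438, described as E2F4-like but annotated with the domain DUF1635 and no E2F domain, at 0.97, 1.34 and 0.74 FPKM in B-deficient root tips, against 0.54, 0.67 and 0.27 FPKM in control root tips (log2 fold change 0.94 ± 0.39 (SE), adjusted p = 0.118). The partner kinase CDKA bears a name the rule does not take, cell division control protein 2 homolog. That name was looked up for this reason, leaving out names that add -like or a letter A to D, and it matched 1 gene. This gene, LOC103928645, had 43.1, 45.5 and 43.8 FPKM in B-deficient root tips, against 43.3, 44.0 and 44.8 FPKM in control root tips, a log2 fold change of 0.00 ± 0.05 (SE).

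CDK inhibitors of 2 plant families were measured, the KIP-related proteins and the SIAMESE-related proteins, and no member of the 7 tested was called by limma. At an unadjusted p below 0.05, 2 were higher and 1 lower, beside 16.3% and 23.2% of all genes tested. The inhibitor 7-like LOC103956682 had 3.55, 3.1 and 2.92 FPKM in B-deficient root tips, against 4.65, 3.95 and 6.26 FPKM in control root tips. Its B deficiency values all lay below the controls, with an adjusted p just under the threshold (log2 fold change -0.60 ± 0.19 (SE), adjusted p = 0.04999). SMR9, LOC103955913, of the SIAMESE-related family, had 11.7, 12.7 and 12.5 FPKM in B-deficient root tips, against 10.7, 8.14 and 8.75 FPKM in control root tips, and was higher in every B deficiency library (log2 fold change 0.42 ± 0.11 (SE), adjusted p = 0.0307). Its adjusted p was 0.0562 to 0.102 without B deficiency library 1 or 3 or control library 2 or 3. The inhibitor 6-like LOC103964480 had 0.72, 1.13 and 1.11 FPKM in B-deficient root tips, against 2.6, 2.5 and 0.74 FPKM in control root tips, where control library 3 lay among the B deficiency values. Without that library it was called lower (log2 fold change -1.31, adjusted p = 0.0249 by limma), and with it the adjusted p was 0.278. SMR2-like LOC125477783 had 4.92, 5.36 and 3.44 FPKM in B-deficient root tips, against 2.77, 3.45 and 3.54 FPKM in control root tips, with the groups overlapping (log2 fold change 0.46 ± 0.19 (SE), adjusted p = 0.122).

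The MCM helicase is the licensed motor of the replication fork, and each of its 6 subunits had 2 tested copies in the pear annotation. Summed over these 12 genes, expression was 103, 88.3 and 107 FPKM in B-deficient root tips, against 90.2, 93.1 and 92.9 FPKM in control root tips. The libraries overlapped in this sum, with B deficiency library 2 below the 3 controls and B deficiency libraries 1 and 3 above them. Reads that fit both copies of a pair are shared out in the counting, so single copies are less certain than their sum, and copies of a subunit did not always share a direction. For MCM5, LOC103955948 had 16.6, 13.2 and 16.2 FPKM in B-deficient root tips, against 10.9, 12.5 and 10.8 FPKM in control root tips, and was higher without overlap (log2 fold change 0.42 ± 0.11 (SE), adjusted p = 0.0297). The other copy, LOC103949122, had 7.2, 5.57 and 8.66 FPKM in B-deficient root tips, against 9.18, 8.89 and 9.67 FPKM in control root tips, lower in each B deficiency library but not past the test (log2 fold change -0.39 ± 0.16 (SE), adjusted p = 0.11). Summed over both copies, MCM5 had 23.8, 18.8 and 24.9 FPKM in B-deficient root tips, against 20.1, 21.4 and 20.5 FPKM in control root tips, with overlap.

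For MCM4, LOC125473387 had 6.6, 5.22 and 6.05 FPKM in B-deficient root tips, against 3.01, 3.98 and 3.42 FPKM in control root tips, again without overlap (log2 fold change 0.77 ± 0.15 (SE), adjusted p = 0.00863). The second MCM4 copy, LOC103962069, did not pass the test, with a log2 fold change of 0.04 (adjusted p = 0.736). The sum of both MCM4 copies was 14.9, 13.9 and 14.3 FPKM in B-deficient root tips, against 10.9, 11.9 and 12.1 FPKM in control root tips, with no overlap. MCM7 held the only called MCM gene, LOC125478025, at 1.64, 1.15 and 1.14 FPKM in B-deficient root tips, against 0.11, 0.09 and 0.17 FPKM in control root tips (log2 fold change 2.66 ± 0.37 (SE), adjusted p = 0.00214). It was a low-quality gene model expressed at about 1 FPKM, and its control mean alone would have left it below the 0.5 FPKM minimum. The main MCM7 gene, LOC103967172, had 17.6, 12.9 and 19.5 FPKM in B-deficient root tips, against 13.9, 14.1 and 14.6 FPKM in control root tips, and the groups overlapped (log2 fold change 0.21 ± 0.15 (SE), adjusted p = 0.34). MCM2, MCM3 and MCM6 had no copy with an adjusted p below 0.05, with log2 fold changes from -0.29 to 0.13.

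Of the 20 tested DNA polymerase and primase genes none was called, and 1 had an adjusted p below 0.05. That gene was LOC103957642, a copy of POLD1, the catalytic subunit of the lagging-strand polymerase delta, at 2.86, 3.13 and 2.71 FPKM in B-deficient root tips, against 5, 5.57 and 5.53 FPKM in control root tips. All 3 B deficiency values lay below the controls, short of a 2-fold change (log2 fold change -0.87 ± 0.12 (SE), adjusted p = 0.00201). The other POLD1 copy, LOC103936047, was the more expressed of the 2, at 7.64, 7.55 and 7.14 FPKM in B-deficient root tips, against 7.48, 6.93 and 6.28 FPKM in control root tips, and its log2 fold change was 0.11 (adjusted p = 0.445). POLA1, the catalytic subunit of the priming polymerase alpha, had log2 fold changes of 0.07 and 0.19 in its 2 copies, and POLE, of the leading-strand polymerase epsilon, -0.12 and 0.28.

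PCNA, the sliding clamp that is widely used as a mark of S phase, had 2 tested genes, 1 of which was lower in B deficiency by a small margin. LOC103963240 had 43.4, 44.3 and 45.2 FPKM in B-deficient root tips, against 53.1, 50.5 and 53.4 FPKM in control root tips (log2 fold change -0.24 ± 0.05 (SE), adjusted p = 0.0132). LOC103929815 had 41.6, 41.7 and 42.8 FPKM in B-deficient root tips, against 55.1, 44.2 and 49.3 FPKM in control root tips, with a fold change of like size and a wider spread (log2 fold change -0.23 ± 0.08 (SE), adjusted p = 0.0786). The groups did not overlap in either copy, and only the first had an adjusted p below 0.05. The 95% interval of the first ran from -0.36 to -0.12 on the log2 scale.

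The clamp loader RFC opens PCNA and places it on DNA, and 10 of its 14 genes were tested, 1 called in each direction. Over all genes tested, 4.37% were called higher and 3.83% lower. The most expressed, the RFC3-like LOC103956269, had 24.1, 28.9 and 23.4 FPKM in B-deficient root tips, against 42.4, 48.8 and 49 FPKM in control root tips. Every B deficiency library was lower than every control library, at a fold change short of 2-fold (log2 fold change -0.88 ± 0.10 (SE), adjusted p = 9.07e-04). A second RFC3 gene, LOC103953660, had 1.09, 0.68 and 0.09 FPKM in B-deficient root tips, against 3.76, 2.76 and 1.87 FPKM in control root tips, and was called lower (log2 fold change -2.31 ± 0.66 (SE), adjusted p = 0.0378). Its B deficiency values were themselves spread widely, and it was called in 3 of the 6 fits that leave out 1 library, failing without each control library in turn. The RFC1 gene LOC125480721, a large-subunit copy, had 2.37, 2.73 and 2.43 FPKM in B-deficient root tips, against 1.12, 1.06 and 1.35 FPKM in control root tips, and was called higher (log2 fold change 1.04 ± 0.18 (SE), adjusted p = 0.0056). Without B deficiency library 2 its log2 fold change was 0.98 and without control library 2 it was 0.97, so it was then not called. The main RFC1 gene, LOC103951725, had 13.5, 11.3 and 11.6 FPKM in B-deficient root tips, against 12.9, 12.4 and 13.2 FPKM in control root tips, and its groups overlapped.

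**Figure D2:**
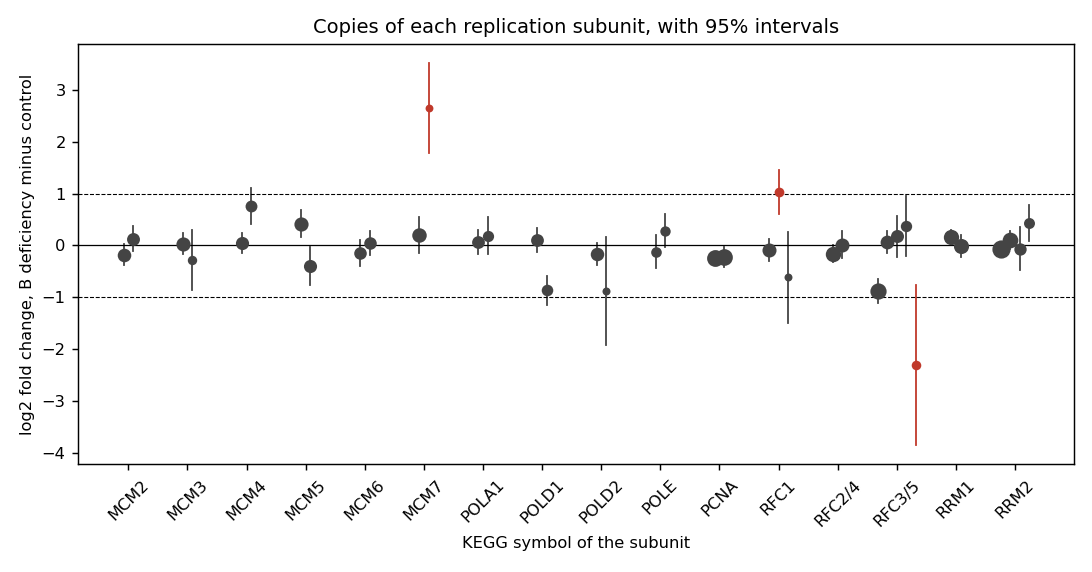
Log2 fold change (B deficiency minus control) of every tested copy of 16 replication subunits, with 95% intervals from limma. Copies of a subunit stand side by side, the most expressed at the left, larger points mean higher FPKM, red points were called, and dashed lines mark a 2-fold change. The called copies of MCM7, RFC1 and RFC3/5 are each less expressed than the leftmost copy of their subunit.

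RPA covers single-stranded DNA, and its large subunit was the role with most calls, 7 of the 11. KEGG assigned 47 genes to this subunit (RFA1), of which 29 were tested, 2 called higher and 5 lower. These were 6.90% and 17.2% of the 29, beside 4.37% and 3.83% of all genes tested. Of the 47, 5 were annotated with the N-terminal RPA domain Rep-A_N, and none of these 5 was called, with log2 fold changes from -0.49 to 0.13. All 7 called genes were among the 24 tested genes without that annotation. Without the large-subunit genes, 166 members were tested, 3 called higher (1.81%) and 1 lower (0.602%).

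Of the genes with that domain, the RPA 70 kDa subunit B-like LOC103937748 had 10.2, 12.9 and 13.2 FPKM in B-deficient root tips, against 11.6, 11.9 and 10.9 FPKM in control root tips, with overlap between the groups. The subunit A-like LOC103951918 had 2.33, 2.55 and 2.68 FPKM in B-deficient root tips, against 3.34, 3.82 and 3.61 FPKM in control root tips, lower without overlap and short of a 2-fold change (log2 fold change -0.49 ± 0.13 (SE), adjusted p = 0.0304). The highest S-phase gene of all, LOC103953528, is also assigned to this subunit, as a protein without a known domain, and had 95.7, 102 and 108 FPKM in B-deficient root tips, against 109, 106 and 104 FPKM in control root tips (log2 fold change -0.06 ± 0.06 (SE), adjusted p = 0.486). The small subunits RFA2 and RPA3 had 4 tested genes, and the RPA3 gene LOC103963602 was higher, at 13.1, 11.2 and 10.9 FPKM in B-deficient root tips, against 6.81, 9.53 and 8.96 FPKM in control root tips (log2 fold change 0.48 ± 0.14 (SE), adjusted p = 0.0442).

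The 2 large-subunit genes called higher were both described as RPA 70 kDa subunit C-like. LOC103953364 had 10.5, 6.2 and 9.35 FPKM in B-deficient root tips, against 0.92, 0.56 and 0.77 FPKM in control root tips, the largest rise of any member (log2 fold change 3.36 ± 0.25 (SE), adjusted p = 1.53e-04). LOC125473669 had 2.24, 1.62 and 1.56 FPKM in B-deficient root tips, against 0.12, 0.24 and 0.24 FPKM in control root tips, a low-level gene near 0 in the control libraries (log2 fold change 2.68 ± 0.33 (SE), adjusted p = 0.00134). Both were called in all 6 fits that leave out 1 library. LOC125473669 entered the test through its B deficiency libraries alone, as its control values all lay under the 0.5 FPKM minimum.

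Of the 5 called lower, 3 were numbered loci, which carry a number in the files in place of a reference gene name. The locus novel31, with an RPA OB-fold domain, was listed at 0 FPKM in all 3 B deficiency libraries, against 16.6, 14.7 and 14.2 FPKM in control root tips (adjusted p = 6.34e-06). The locus entered the test through its control libraries alone, and no fold change is given against a group listed at 0. The locus novel32 had 5.89, 3.15 and 8.1 FPKM in B-deficient root tips, against 11.5, 21.5 and 23.3 FPKM in control root tips, with B deficiency library 2 the lowest of all 6 (log2 fold change -1.73 ± 0.38 (SE), adjusted p = 0.0146). It was not called without control library 2 or control library 3. The locus novel182 had 1.37, 1.41 and 1.23 FPKM in B-deficient root tips, against 2.93, 2.26 and 3.41 FPKM in control root tips (log2 fold change -1.03 ± 0.20 (SE), adjusted p = 0.00852), and it fell short of the minimum fold without B deficiency library 3 or control library 3, under median-of-ratios or quantile scaling and with a pseudocount of 1 FPKM.

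LOC103961037 had 1.26, 2.52 and 1.65 FPKM in B-deficient root tips, against 4.69, 7.14 and 8.62 FPKM in control root tips, with no overlap (log2 fold change -1.87 ± 0.30 (SE), adjusted p = 0.00401). LOC108868099, described as RPA 70 kDa subunit B-like, had 5.3, 4.67 and 4.52 FPKM in B-deficient root tips, against 9.36, 12.1 and 14 FPKM in control root tips, and it carried the domains PIF1 and Helitron_like_N beside DUF223 (log2 fold change -1.26 ± 0.16 (SE), adjusted p = 0.00127). Helitrons are transposable elements whose proteins can carry RPA-like parts. Of the 16 tested members that are numbered loci, 3 were called lower and none higher by limma. Among all numbered loci, 176 were called higher and 325 lower of 2245 tested.

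**Figure D3:**
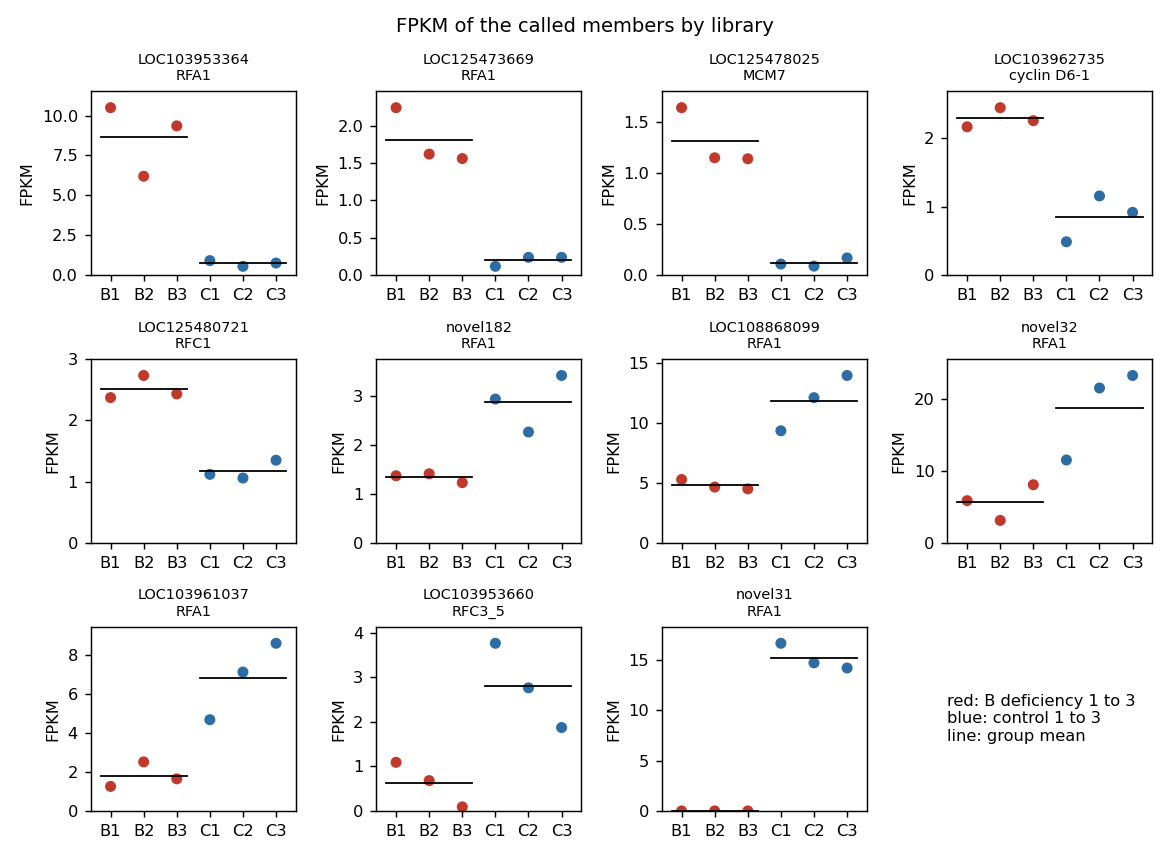
FPKM of the 11 called genes in each library, B deficiency libraries 1 to 3 (B1 to B3, red) left of control libraries 1 to 3 (C1 to C3, blue), with group means as lines. Each panel starts at 0 and has its own scale, and the groups do not overlap in any of the 11 panels. The highest value shown is 23.3 FPKM, in control library 3 of novel32.

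The enzymes that finish the lagging strand and supply nucleotides had no called gene. Flap endonuclease FEN1, LOC103955829, which trims RNA primers, had 17.2, 17.9 and 19.5 FPKM in B-deficient root tips, against 17.9, 18.4 and 18.2 FPKM in control root tips. DNA ligase 1, LOC103928628, had 7.48, 7.5 and 8.7 FPKM in B-deficient root tips, against 7.89, 8.23 and 7.53 FPKM in control root tips, and the groups overlapped in both genes. Ribonucleotide reductase makes the deoxyribonucleotides for replication, and its most expressed small-subunit gene, LOC103936774, had 104, 96.8 and 98.1 FPKM in B-deficient root tips, against 105, 112 and 97.8 FPKM in control root tips (log2 fold change -0.08 ± 0.06 (SE), adjusted p = 0.426). Its 6 genes had log2 fold changes from -0.08 to 0.43, none with an adjusted p below 0.05. Outside the nucleus, the organelle DNA polymerase I B LOC103967086, which copies plastid and mitochondrial DNA, had 11.3, 11 and 11.4 FPKM in B-deficient root tips, against 15.4, 15.3 and 14.6 FPKM in control root tips. All its B deficiency values were below the controls (log2 fold change -0.42 ± 0.07 (SE), adjusted p = 0.00383).

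No mitosis gene was called by limma. With an adjusted p below 0.05 and no minimum fold, 3 were higher, 1 of them a UMP1 gene, and 1 lower. Over all genes tested, 12.0% were higher and 15.4% lower in this way. At an unadjusted p below 0.05, 4 of 40 were higher and 5 lower, beside 16.3% and 23.2% of all genes tested. B-type cyclins, which peak at entry into mitosis, had 14 tested genes with a median log2 fold change of -0.08. LOC103936542, a G2/mitotic-specific cyclin-2-like gene, had 13.5, 12.1 and 15.3 FPKM in B-deficient root tips, against 9.65, 9.48 and 9.13 FPKM in control root tips, and was higher in every B deficiency library (log2 fold change 0.52 ± 0.10 (SE), adjusted p = 0.00874). The locus novel3433, with the same description, had 6.93, 5.56 and 6.87 FPKM in B-deficient root tips, against 4.88, 4.35 and 5.05 FPKM in control root tips (log2 fold change 0.43 ± 0.13 (SE), adjusted p = 0.043). The most expressed B-type cyclin, the S13-6-like gene LOC103932158, had 21.1, 22.5 and 20.6 FPKM in B-deficient root tips, against 23.2, 22.9 and 23.1 FPKM in control root tips (log2 fold change -0.11 ± 0.06 (SE), adjusted p = 0.236).

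Cyclin-B3-1, LOC125476536, was lower, at 2.26, 2.41 and 2.42 FPKM in B-deficient root tips, against 3.27, 4.05 and 4.21 FPKM in control root tips (log2 fold change -0.67 ± 0.15 (SE), adjusted p = 0.0139). Its gene model also held a translation elongation factor domain and the KEGG entry RIA1, and the FPKM covers the whole model. The locus novel2928, matched to cyclin-B3-1, had 0.6, 1.1 and 0.16 FPKM in B-deficient root tips, against 1.81, 1.63 and 1.41 FPKM in control root tips. B deficiency library 2 lay nearest to the controls, and the gene was called lower when that library was left out (log2 fold change -2.002, adjusted p = 0.0135 by limma; with it, 0.076). A-type cyclins, which act from S phase to mitosis, had 11 tested genes and none with an adjusted p below 0.05. The widest A-type difference was that of the low cyclin-A2-2-like gene LOC103966004, at 0.99, 0.65 and 0.86 FPKM in B-deficient root tips, against 0.42, 0.7 and 0.28 FPKM in control root tips (log2 fold change 0.77 ± 0.38 (SE), adjusted p = 0.181).

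The plant-specific mitotic kinase CDKB had 2 genes. LOC103961775 had 23.6, 21.6 and 24.5 FPKM in B-deficient root tips, against 26.4, 23.2 and 25.2 FPKM in control root tips (log2 fold change -0.10 ± 0.08 (SE), adjusted p = 0.379). LOC103952922 had 10.9, 8.2 and 9.06 FPKM in B-deficient root tips, against 11.1, 10.8 and 10.6 FPKM in control root tips (log2 fold change -0.21 ± 0.11 (SE), adjusted p = 0.208), and the 95% intervals of both lay inside a 2-fold change. The CDK subunit CKS had log2 fold changes of -0.11 and -0.10 in its 2 genes.

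The spindle checkpoint delays anaphase until chromosomes are attached. Its genes MAD1, MAD2, BUB1, BUBR1 and BUB3, together with the gamma-tubulin complex protein MOZART1, came to 9, all tested, and none had an adjusted p below 0.05. MAD2, LOC103949882, had 6.13, 4.99 and 6.38 FPKM in B-deficient root tips, against 5.94, 5.39 and 4.73 FPKM in control root tips, with overlap. The widest difference was that of the MOZART1-like LOC103927835, at 36.4, 23.7 and 31.8 FPKM in B-deficient root tips, against 32.7, 50.7 and 44.1 FPKM in control root tips (log2 fold change -0.47 ± 0.20 (SE), adjusted p = 0.123). The highest member of the mitosis group, LOC103947796, was taken as a cyclin-B1-2-like gene but carried the UMP1 domain of a proteasome maturation factor and no cyclin domain. It had 185, 178 and 197 FPKM in B-deficient root tips, against 187, 198 and 187 FPKM in control root tips (log2 fold change -0.03 ± 0.06 (SE), adjusted p = 0.736), and the second UMP1 gene, LOC103960285, was higher, at 49.1, 56.9 and 53.4 FPKM in B-deficient root tips, against 44.9, 45.9 and 39.5 FPKM in control root tips (log2 fold change 0.29 ± 0.08 (SE), adjusted p = 0.0367).

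The other cyclins and CDKs, most of which act in transcription (cyclins C, H, L and T with CDKC, CDKD and CDKE), had no gene called by limma among 33 tested, and 4 higher and 4 lower at an unadjusted p below 0.05 (16.3% and 23.2% of all genes tested). Cyclin-T1-4-like LOC103954141 had 38.5, 30.2 and 38.8 FPKM in B-deficient root tips, against 46.5, 48.4 and 51.3 FPKM in control root tips, lower without overlap (log2 fold change -0.45 ± 0.10 (SE), adjusted p = 0.0174). CDKC-1-like LOC103930476, the partner kinase of cyclin T, was also lower, at 6.86, 8.58 and 8.19 FPKM in B-deficient root tips, against 10, 10.6 and 11 FPKM in control root tips (log2 fold change -0.42 ± 0.11 (SE), adjusted p = 0.0246). The second CDKC gene, LOC103929918, did not pass, at -0.02 on the log2 scale (adjusted p = 0.892). CDKF-4 LOC103955563 was the most expressed of this set, at 86.3, 87.1 and 87.4 FPKM in B-deficient root tips, against 91.8, 92.5 and 89 FPKM in control root tips (log2 fold change -0.07 ± 0.04 (SE), adjusted p = 0.309), and the 2nd CDKF-4 gene, LOC125472290, was lower by a small margin (log2 fold change -0.27 ± 0.05 (SE), adjusted p = 0.0104).

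U-type and P-type cyclins, related to the yeast phosphate-signalling cyclin Pho80, were the role in which B deficiency library 2 stood furthest from its group. Cyclin-U4-1-like LOC103959779 had 10.9, 21.7 and 12.8 FPKM in B-deficient root tips, against 6.5, 8.03 and 7.69 FPKM in control root tips. It was higher in B deficiency without overlap, just short of a 2-fold change, and library 2 was the highest of all 6 (log2 fold change 0.96 ± 0.24 (SE), adjusted p = 0.0242). Without library 2 its log2 fold change was 0.67 (adjusted p = 0.00651), and without library 1 or library 3 it was called higher, at 1.17 and 1.05. Without control library 1, 2 or 3 its adjusted p was 0.0869, 0.0605 and 0.0664. Cyclin-U4-1-like LOC103952770 had 1.38, 4.24 and 1.9 FPKM in B-deficient root tips, against 3.02, 3.41 and 3.41 FPKM in control root tips, so that libraries 1 and 3 lay below the controls and library 2 above them (log2 fold change -0.53 ± 0.37 (SE), adjusted p = 0.331). LOC103964194, likewise U4-1-like, had 12.6, 22.5 and 12 FPKM in B-deficient root tips, against 16.7, 18.1 and 16.3 FPKM in control root tips, and the P3-1-like LOC103946478 had 68.5, 80.4 and 66.8 FPKM in B-deficient root tips, against 64.8, 64.5 and 62.4 FPKM in control root tips. In all 6 tested genes of these types library 2 was the highest B deficiency library, where it was the highest for 39.2% of all genes tested.

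Over all members, B deficiency library 2 was the lowest of the 3 B deficiency libraries in 45.1% of tested genes and the highest in 27.7%, beside 39.9% and 39.2% of all genes tested. Its position differed by role. It was the lowest in 9 of the 12 MCM genes, with a median gap of -0.24 on the log2 scale to the mean of libraries 1 and 3. Both CDKB genes, 3 of the 4 RPA small-subunit genes and 8 of the 13 D-type cyclins were also lowest in library 2. The U- and P-type cyclins had a median gap of 0.82 the other way. These shares are descriptions of 1 library, and genes are not replicates.

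**Figure D4:**
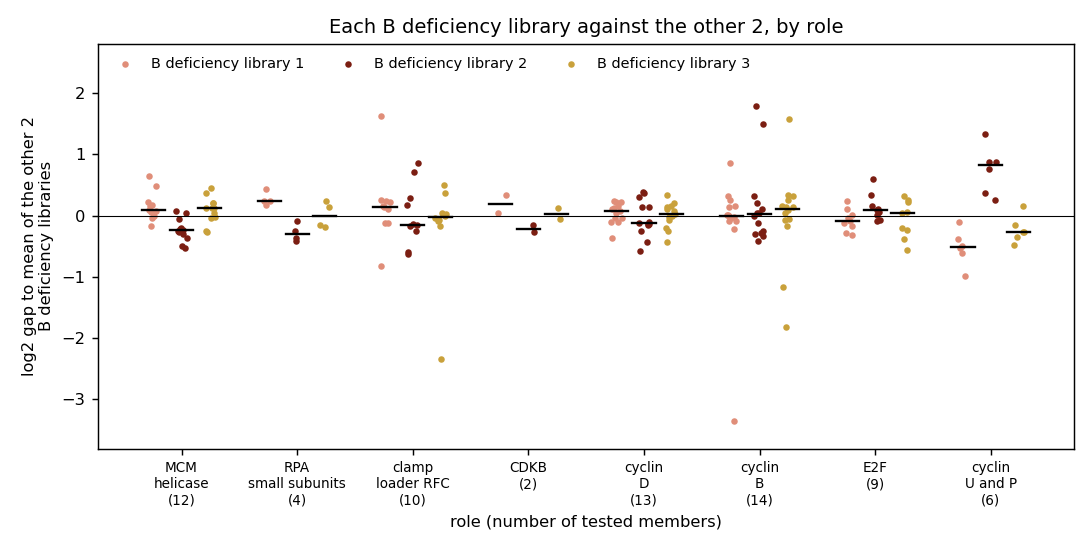
Gap on the log2 scale between each B deficiency library and the mean of the other 2, one point per tested gene and library, for 8 roles with the number of genes in brackets. Black bars are medians, and library 2 is the darkest colour. Library 2 lies below the others in most MCM genes (median -0.24) and above them in all 6 U- and P-type cyclins (median 0.82).

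The 3 widest gaps of library 2 were in low-level genes. The locus novel1303, assigned to the RPA large subunit, had 1.59, 0 and 2.93 FPKM in B-deficient root tips, against 2.51, 1.93 and 2.4 FPKM in control root tips. The locus novel466, of the same assignment, had 0, 4.15 and 0.41 FPKM in B-deficient root tips, against 2.94, 2.41 and 4.45 FPKM in control root tips. Cyclin-B3-1 LOC125468090 had 0, 0.97 and 0.87 FPKM in B-deficient root tips, against 0.58, 0.29 and 0.57 FPKM in control root tips. None of the 3 was called with all libraries in the fit. When library 2 was left out, 5 members were called higher (4.53% of all genes in that fit) and 8 lower (4.48% of all genes), and 10 of the 11 called members kept their call. The exception was RFC1 LOC125480721. The 3 further calls in that fit were novel466 and novel2928, both lower, and the RPA C-like novel577, which was higher and was named after its values were seen. Adjusted p values below 0.05 with no minimum fold then covered 23 members higher and 24 lower, beside 15.4% and 20.4% of all genes in that fit.

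Other genes of the cell cycle that the rule leaves out were looked at as a list of 139 genes, of which 123 were tested: origin recognition, CDC6 or CDT1, CDC45 and GINS, the anaphase-promoting complex with CDC20 or CCS52, Aurora kinases, WEE1, MYB3R, TPX2, condensin and cohesin, kinetochore proteins, separase or shugoshin, topoisomerase 2, thymidylate synthesis and retinoblastoma-related proteins. None was called higher by limma (4.37% of all genes tested) and 3 were called lower (3.83% of all genes tested), with a list median of -0.06. At an unadjusted p below 0.05, 12 were higher and 18 lower, beside 16.3% and 23.2% of all genes tested. The locus novel2147, matched to a retinoblastoma-related protein, had 1.97, 1.04 and 2.16 FPKM in B-deficient root tips, against 5.67, 4.84 and 4.82 FPKM in control root tips (log2 fold change -1.57 ± 0.27 (SE), adjusted p = 0.00496 by limma). It was 1 of 5 tested retinoblastoma-related genes, whose log2 fold changes ran from -1.57 to 0.41, 2 above 0 and 3 below. The TPX2 locus novel2241, of a spindle assembly factor, had 0.66, 0.33 and 0 FPKM in B-deficient root tips, against 2.11, 1.79 and 2.67 FPKM in control root tips (adjusted p = 0.0233). The origin recognition subunit 5-like LOC103957380 had 0.18, 0.27 and 0.13 FPKM in B-deficient root tips, against 0.41, 1.19 and 0.98 FPKM in control root tips (adjusted p = 0.0441). The TPX2 and origin recognition genes entered the test through the control group alone, with B deficiency means of 0.33 and 0.193 FPKM. Without the minimum fold, 4 of the 123 were higher and 16 lower at an adjusted p below 0.05, beside 12.0% and 15.4% of all genes tested. Both were smaller shares of the list than of all genes.

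Marker lists of root tissues were read beside these values, as expression of the matched genes and not as a measure of tissue make-up. PLT2, LOC103963467, a factor of the root stem cell niche, was present in all libraries, at 29.3, 30.4 and 28.4 FPKM in B-deficient root tips, against 32.5, 32.7 and 32.7 FPKM in control root tips (log2 fold change -0.15 ± 0.05 (SE), adjusted p = 0.0784). Of 9 Casparian strip membrane protein genes, which mark the endodermis, 6 were tested and the other 3 were near 0. Among the 6, 4 were higher with an adjusted p below 0.05 (12.0% of all genes tested) and 1 of them was called (4.37% of all genes tested). The called gene, LOC103951050, entered the test through its B deficiency libraries alone, with a control mean of 0.243 FPKM. The summed level of the list was 124 to 168 FPKM in B-deficient root tips, against 112 to 118 FPKM in control root tips. Root cap factors summed to 38.6 to 43.8 FPKM in B-deficient root tips, against 43.2 to 45.5 FPKM in control root tips. Of its 6 tested genes, FEZ-like LOC103932908 was called higher and BEARSKIN2 LOC103956584 was called lower. Of all genes tested, 4.37% were called higher and 3.83% lower. Both SOMBRERO genes were lower with an adjusted p below 0.05. With BEARSKIN2 they made 3 of the 6, beside 15.4% of all genes tested. The meristem list, which holds many scarecrow-like and growth-regulating factors, summed to 677 to 756 FPKM in B-deficient root tips, against 690 to 704 FPKM in control root tips, with library 2 the highest. Of its 73 tested genes 1 was called higher, a scarecrow-like gene, and none lower, and 9 were higher and 6 lower with an adjusted p below 0.05. These 9 and 6 were 12.3% and 8.22% of the 73, beside 12.0% and 15.4% of all genes tested. The 6 lower genes included AIL5 LOC108868095 (log2 fold change -0.58), SHORT-ROOT-like LOC103945756 (-0.35) and BBM1 LOC103951943 (-0.33). The 9 higher genes included scarecrow-like protein 3 LOC103929549 (0.71) and LOC103945559 (0.61), and scarecrow-like protein 13 LOC103940228 (0.25). The median log2 fold change of the list was -0.02. Xylem cellulose synthases (0 of 6 called) and sieve element genes (0 of 4 called) had no call. The leaf list had 1 of 11 called, lower. The root hair list matched only ROOT HAIR DEFECTIVE 3 genes, which encode a GTPase, with 1 of 7 called, lower. Over all genes tested, 3.83% were called lower. The part of these tissues in the values of the cell cycle genes was not tested.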

How the data were processed

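Root tip RNA of 3 B deficiency and 3 control libraries was sequenced. The deposited values are FPKM per gene, which the authors made from filtered reads with STAR and RSEM, on the genome of P. bretschneideri; the submitters' processing notes name HISAT2, Cufflinks 2.2.1 and DESeq2 instead, and which set made the files is not settled. The values keep no read depth, so precision rests on the 3 libraries per group. Lines without a gene (1010760) and the authors' group means, ratios and log2 changes were not used. Control columns were matched to labels by replicate number.

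B deficiency minus control was fitted with limma 3.58.1 (R 4.3.3; lmFit, eBayes with trend) on log2(FPKM + 0.1) for the 28129 genes averaging 0.5 FPKM or more, with Benjamini-Hochberg adjustment over all of them, and the code was tested on simulated data. Members and lists were chosen with earlier results of these data known. Groups and lists were matched on the protein description; the pattern for D-, A- and B-type cyclins was narrowed to a letter and a digit after the descriptions were seen. Named were, per group, each called gene, the largest rise and fall and the highest mean, plus the 3 widest gaps of B deficiency library 2 and copies or relatives of these. Alternatives were another pseudocount, other filters, median-of-ratios and quantile scaling, no trend, library weights, a replicate block and leaving out each library. No sequences or coordinates were used here.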

Additional observations from a re-analysis of the deposited data

How the results depend on the processing

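The numbers of members called stayed within 4 to 7 higher and 4 to 9 lower in every alternative fit but 1: with a pseudocount of 1 FPKM in place of 0.1, 3 members were called higher and 5 lower, the cyclin-D6-1 and RFC1 genes then falling short of the minimum fold. Leaving out 1 library at a time gave 4 to 6 called higher and 4 to 8 lower. With no minimum fold, leaving out 1 library gave 8 to 23 members higher and 9 to 24 lower at an adjusted p below 0.05, the most without B deficiency library 2, and library weights gave 21 higher and 26 lower. The G1 median log2 fold change was 0.0713 with no minimum FPKM, 0.0814 under median-of-ratios scaling and 0.05905 under quantile normalization, and -0.0393 to 0.0476 with 1 library left out. The mitosis median was -0.00894 under median-of-ratios scaling and -0.0193 with library weights, and -0.0655 to -0.00816 with 1 library left out. The cause of these shifts was not tested. A replicate block gave 5 members called higher and 7 lower. Same-numbered libraries correlated at 0.04, 0.03 and -0.00 in their deviations from the group means, so the numbers were not taken to pair the samples. Of 359 values of the named genes in the alternatives, 333 kept their side of the threshold, 17 lost the call and 9 gained it. No called value turned in sign, and 7 values below the threshold did. Of the 11 called members, 5 were called in all 14 alternatives, and MCM7 LOC125478025 in all but the minimum mean of 1 FPKM, where it was not tested. RFC3 LOC103953660 and novel182 lost their call in 5 alternatives each, the first with an adjusted p of 0.0566 under quantile normalization and 0.0684 without the trend, the second with log2 fold changes of -0.98 under median-of-ratios scaling, -0.97 under quantile normalization and -0.72 with a pseudocount of 1 FPKM. Without the trend the adjusted p was 0.0513 for SMR9 and 0.0524 for cyclin-U4-1-like LOC103959779, and 0.0641 for SMR9 with the replicate block. FPKM without counts sets no detection limit for the low genes.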
